A study of Mus musculus with 8 samples.

Results

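Immediate early genes of the AP-1 and Egr families were examined in haematopoietic stem and progenitor cells of Jmjd6 knockout (Jmjd6 KO) and wild type mice. The set holds 10 genes chosen by symbol, Fos, Fosb, Jun, Junb, Jund, Egr1, Egr2, Egr3, Ier2 and Dusp1, of 26146 genes in the count table. Of the 10 genes, 8 passed the filter on low counts, as did 13439 genes in all; Egr2 and Egr3 did not pass. Messenger RNA (polyA) had been sequenced in bulk from sorted Lin-Sca1+Kit+ (LSK) cells of 8 mice, with 1 library per mouse. In the 4 Jmjd6 KO mice Jmjd6, which encodes a JmjC-domain oxygenase, carried floxed alleles that a Cre recombinase had removed from the haematopoietic lineages, and the labels do not name the driver of that Cre. The 4 other mice were wild type. The labels give the same protocol text for both genotypes and do not say whether wild type mice carried the Cre or the floxed alleles, nor do they give an age, strain or sex.

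Immediate early genes are transcribed within minutes of a stimulus without new protein synthesis, mostly through kinases of the ERK and p38 pathways acting on factors such as SRF, the ETS-domain factors Elk1 and Elk4, and CREB. Fos and Jun proteins pair through leucine zippers to form the AP-1 transcription factor, and Egr proteins bind GC-rich DNA through zinc fingers. In haematopoietic stem cells Egr1 is known as a factor that holds cells in quiescence and in the niche, and Junb as a brake on myeloid expansion. The same transcripts are also known to appear when tissue is dissociated and sorted, before cells are lysed.

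The libraries held between 9344779 and 15079960 counts. The targeted gene Jmjd6 stood at 28.7, 28.1, 30.7 and 27.5 CPM (each gene's counts scaled to a common library size, with TMM factors) in KO replicates 1 to 4, against 52.5, 63.7, 54.6 and 63.7 CPM in wild type replicates 1 to 4. Every KO library therefore lay below every wild type library for the deleted gene. Summed over 10 markers of LSK cells, among them Kit and Ly6a, the level was 2970 to 3300 CPM in KO libraries and 3065 to 3848 CPM in wild type libraries. The granulocyte markers summed to 1551 to 2380 CPM in KO libraries, while wild type replicate 1 reached 5229 CPM and the 3 remaining wild type libraries 983 to 1254 CPM. In a principal component analysis KO replicate 3 lay far from the rest, scoring 83.9 on component 1 (37.8% of variance) where the 7 others scored -28.0 to 9.41. The libraries of KO replicate 3 and wild type replicate 4 had 0 counts of 4 Y-linked genes, 1 library in each genotype.

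In the GRCm38 annotation Fos lies at chr12:85473890-85477273, Fosb at chr7:19302696-19310051 and Jun at chr4:95049034-95052222. Junb, Jund and Ier2 share chromosome 8, at chr8:84974484-84978718, chr8:70698949-70700616 and chr8:84661331-84662852, and Dusp1 lies at chr17:26505590-26562128. Counts were summed per gene.

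All 8 tested genes had counts in every library. Divided by the annotated exon length, Fos, which encodes the leucine zipper partner of Jun, was the most abundant, at 336 ± 108 CPM per kilobase in KO and 332 ± 91 CPM per kilobase in wild type (mean ± SD, n = 4 each, as for the other levels per kilobase). Ier2, which encodes a nuclear protein of the early serum response, followed at 243 ± 36.2 in KO and 182 ± 44.9 in wild type. Jun, the main partner of Fos, reached 201 ± 64.9 in KO and 169 ± 56.6 in wild type. Below these 3 genes came the phosphatase gene Dusp1, at 98.5 ± 52.9 in KO and 84.2 ± 26.5 in wild type, and Junb, at 72.9 ± 28.5 in KO and 68.1 ± 16.6 in wild type. Egr1 stood at 36.4 ± 11.5 in KO and 22.3 ± 8.83 in wild type, Jund at 14.1 ± 2.81 in KO and 12.3 ± 3.29 in wild type, and Fosb at 4.08 ± 2.38 in KO and 4.63 ± 1.46 in wild type. The range over 8 libraries overlapped between each gene and the next in this order, except between Jund and Fosb. Fos lay above Ier2 in 7 of 8 libraries, whereas Ier2 lay above Jun, and Dusp1 above Junb, in 5 of 8, so the order of these neighbours was not fixed.

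Egr2 and Egr3, which encode zinc finger factors best known from nerve and lymphocyte activation, were near or at the limit of detection. Egr2 had 1, 2, 0 and 0 counts in KO replicates 1 to 4 and 0, 2, 0 and 3 counts in wild type replicates 1 to 4. Egr3 had 1 count in KO replicate 1 and 0 counts in the other KO libraries and in all 4 wild type libraries. These counts do not allow a comparison of the genotypes.

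Promoter windows of 300 bases, from 250 bases before to 50 bases after the annotated start, were taken from RefSeq (assembly GRCm38.p6, which mm10 is based on) and were present for 7 of the 10 genes, all but Egr1, Egr3 and Ier2. Egr2 has several annotated starts, each with a window. The Jund window, chr8:70697489-70697788, ends before the gene start given above, chr8:70698949, so motifs near that start were not searched. The Dusp1 window, chr17:26508423-26508722, lies inside the gene span given above and not at its upstream end, so these annotations place the start differently. The windows of Fos, Fosb, Junb and Dusp1 are shown because these genes varied between mice and hold the core of the cyclic AMP response element (CRE), the letters TGACG on either strand, which is in capitals.
Fos (chr12:85473640-85473939, plus strand): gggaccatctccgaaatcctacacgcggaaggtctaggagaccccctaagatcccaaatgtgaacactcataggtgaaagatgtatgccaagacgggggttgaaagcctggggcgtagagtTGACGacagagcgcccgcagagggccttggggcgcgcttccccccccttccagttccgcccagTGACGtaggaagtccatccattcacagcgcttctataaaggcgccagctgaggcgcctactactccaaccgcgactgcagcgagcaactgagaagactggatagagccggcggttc
Fosb (chr7:19309996-19310295, minus strand): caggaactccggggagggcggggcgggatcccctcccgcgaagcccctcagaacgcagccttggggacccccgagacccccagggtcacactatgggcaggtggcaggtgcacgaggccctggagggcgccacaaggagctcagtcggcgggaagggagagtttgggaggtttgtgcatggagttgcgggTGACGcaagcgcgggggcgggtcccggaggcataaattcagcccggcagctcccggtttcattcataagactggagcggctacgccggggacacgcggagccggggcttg
Junb (chr8:84978699-84978998, minus strand): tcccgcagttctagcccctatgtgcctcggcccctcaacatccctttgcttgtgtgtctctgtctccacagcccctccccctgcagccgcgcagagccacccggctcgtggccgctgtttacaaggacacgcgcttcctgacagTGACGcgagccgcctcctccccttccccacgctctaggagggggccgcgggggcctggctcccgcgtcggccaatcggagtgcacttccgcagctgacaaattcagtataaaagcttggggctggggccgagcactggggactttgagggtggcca
Dusp1 (chr17:26508423-26508722, minus strand): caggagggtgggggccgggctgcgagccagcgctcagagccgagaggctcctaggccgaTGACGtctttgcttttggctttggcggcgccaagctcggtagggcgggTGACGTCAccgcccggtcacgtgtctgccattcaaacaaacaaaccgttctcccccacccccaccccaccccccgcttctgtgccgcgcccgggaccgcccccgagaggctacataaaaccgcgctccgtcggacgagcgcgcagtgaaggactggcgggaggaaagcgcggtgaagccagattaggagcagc
Counted from the start site, the core lay at -129 and -66 in Fos, at -60 in Fosb, at -106 in Junb, and at -191 and -143 in Dusp1, where the match at -143 is the full element TGACGTCA. The Junb window counts from a start upstream of the gene span given above, with a TATAAA match at 1 to 6, so its distances depend on the annotation. The core was in windows of 5 of the 7 genes, the fifth being Egr2, against 20.8% of 32851 windows of the same length over all genes; it was picked after the sequences were seen. The full element, TGACGTCA, was found in Dusp1 alone, against 1.79% of all windows, and overlaps the core. The AP-1 element TGANTCA was in 0 of the 7, against 7.81% of all windows, the CArG box that SRF binds in Egr2 alone, against 1.63%, and the Egr element GCGNGGGCG in Fosb alone, against 5.55%. All motifs were searched on both strands. A gene counted if any of its windows matched, while the shares over all genes are per window. For Egr2, with several windows, the measures are therefore unlike. A match describes letters in the window only. A missing match says nothing of sites farther than 250 bases before the start, or of genes with no window.

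The first question was whether loss of Jmjd6 in LSK cells went with other levels of these genes. Egr1 and Ier2 had the largest differences, both toward KO, and neither passed after adjustment over all genes. No gene of the set had KO libraries all on one side of the wild type libraries. With 4 mice a group, the 95% intervals were wide, from -0.57 to 0.60 on the log2 scale even for Fos, the gene with the smallest difference.

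Among the Fos genes, Fos stood at 986, 955, 786 and 430 CPM in KO replicates 1 to 4, against 533, 1008, 901 and 682 CPM in wild type replicates 1 to 4. The lowest of the 8 was KO replicate 4 and the highest wild type replicate 2, so the groups overlapped over nearly their whole range. The log2 fold change of Fos, KO over wild type, was 0.02 (SE 0.27, 95% interval -0.57 to 0.60, adjusted p = 0.994 by edgeR's quasi-likelihood test). Fosb, whose product dimerises with Jun proteins as Fos does, stood at 42.8, 31.0, 20.4 and 7.90 CPM in KO replicates 1 to 4, against 22.6, 41.7, 29.3 and 22.1 CPM in wild type replicates 1 to 4. KO replicate 4 was the lowest and KO replicate 1 the highest, a 5.41-fold range over 8 libraries and the widest of the set. The log2 fold change of Fosb was -0.19 (SE 0.41, 95% interval -1.08 to 0.71, adjusted p = 0.939 by edgeR), and it was 0.11 without KO replicate 4 and 0.05 without wild type replicate 2.

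Among the Jun genes, Jun stood at 831, 801, 419 and 510 CPM in KO replicates 1 to 4, against 351, 777, 562 and 465 CPM in wild type replicates 1 to 4. KO replicates 1 and 2 exceeded every wild type library, while KO replicates 3 and 4 lay inside the wild type range. The log2 fold change of Jun was 0.25 (SE 0.27, 95% interval -0.34 to 0.84, adjusted p = 0.881 by edgeR). Junb, which opposes Jun on some target genes, stood at 219, 223, 86.1 and 143 CPM in KO replicates 1 to 4, against 106, 198, 161 and 163 CPM in wild type replicates 1 to 4. The 2 highest libraries and the lowest were all KO, and the log2 fold change was 0.10 (SE 0.28, 95% interval -0.52 to 0.71, adjusted p = 0.955 by edgeR). Without KO replicate 3 Junb gave 0.31. Jund, the Jun gene whose transcript is the least inducible, stood at 24.6, 26.5, 26.1 and 16.5 CPM in KO replicates 1 to 4, against 13.1, 24.3, 19.8 and 25.2 CPM in wild type replicates 1 to 4. Its groups overlapped, with a log2 fold change of 0.18 (SE 0.24, 95% interval -0.35 to 0.72, adjusted p = 0.897 by edgeR). In the GENCODE M21 annotation 877 exon bases of Jund are shared with the antisense gene Gm11175, 232 of Jun with the antisense gene Junos and 173 of Junb with Prdx2 on the other strand. The sources used here do not say whether counting used strand, so reads in these stretches may not have been told apart.

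Egr1 stood at 198, 173, 195 and 87.8 CPM in KO replicates 1 to 4, against 47.9, 137, 92.3 and 123 CPM in wild type replicates 1 to 4. KO replicates 1, 2 and 3 exceeded every wild type library, and KO replicate 4 lay below 3 of the 4. The mean was 163 ± 51.6 CPM in KO and 100.2 ± 39.6 CPM in wild type (SD, n = 4 each), a log2 fold change of 0.70 (SE 0.32, 95% interval 0.01 to 1.40). Its unadjusted p was 0.0484 and its adjusted p 0.811 by edgeR, and its two-sided exact permutation p was 0.143, where the smallest that 4 against 4 libraries can give is 0.0286. Without wild type replicate 1 alone the log2 fold change was 0.49 and the unadjusted p 0.0994 by edgeR. It was 0.38 without wild type replicate 1 and KO replicate 3, at an adjusted p of 0.822 by edgeR. The adjusted p ran from 0.204 to 0.999 over 17 alternative analyses, all with Egr1 higher in KO.

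Ier2 stood at 398, 378, 412 and 289 CPM in KO replicates 1 to 4, against 189, 344, 260 and 315 CPM in wild type replicates 1 to 4. As for Egr1, KO replicates 1, 2 and 3 exceeded every wild type library and KO replicate 4 did not. The mean was 369 ± 55.1 CPM in KO and 277 ± 68.4 CPM in wild type (SD, n = 4 each), a log2 fold change of 0.41 (SE 0.20, 95% interval -0.01 to 0.84). The unadjusted p was 0.057 and the adjusted p 0.812 by edgeR, and the exact permutation p was 0.0857. Without wild type replicate 1 and KO replicate 3 the value was 0.21, at an adjusted p of 0.86 by edgeR.

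Dusp1, whose product dephosphorylates the MAP kinases that induce these genes, stood at 298, 273, 573 and 160 CPM in KO replicates 1 to 4, against 159, 318, 275 and 363 CPM in wild type replicates 1 to 4. KO replicate 3 was the highest of all 8, and wild type replicate 1 and KO replicate 4 were the lowest. The log2 fold change of Dusp1 was 0.23 (SE 0.35, 95% interval -0.53 to 0.98, adjusted p = 0.909 by edgeR), and -0.19 without KO replicate 3, the library that stood apart on the first principal component.

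**Figure D1:**
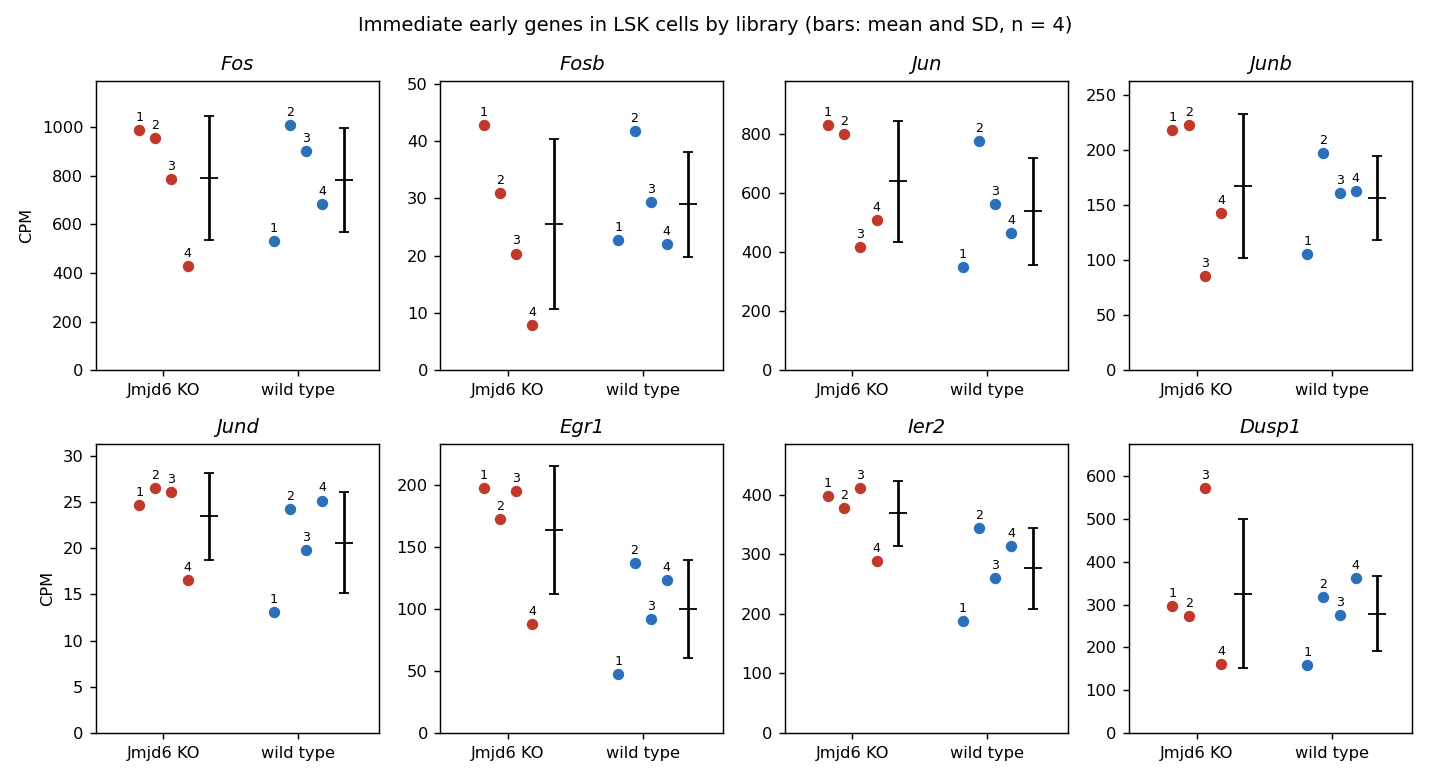
CPM (vertical axis, from 0) of the 8 tested genes in each library of Jmjd6 KO (red, left) and wild type (blue, right) mice; numbers are replicates, and the bars beside the points are mean and SD of 4 mice. The groups overlap in every panel, and KO replicate 4 and wild type replicate 1 sit low in most of them.

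Over the set, edgeR called 0 of 8 tested genes at an adjusted p of 0.05, where 0.0595% of all tested genes did. By DESeq2 the count was also 0, where 0.492% of genes passed, and by limma voom it was 0, where 0.231% passed. At an unadjusted p under 0.05 edgeR gave 1 of 8, Egr1, higher in KO, against 2.78% of all tested genes in that direction and 6.06% in either. This count depended on the analysis. It was 4 of 8 by limma voom, where 9.96% of all genes passed, and 2 of 8 without KO replicate 4, without wild type replicate 2 or without wild type replicate 4. It was 0 of 8 with scaling by library size only, with the replicate block, without any of KO replicates 1, 2 and 3 or wild type replicates 1 and 3, and without KO replicate 3 together with wild type replicate 1 or wild type replicate 4. In 0 of 8 were the groups free of overlap, against 4.19% of all tested genes. The fitted log2 fold change was above 0 in 7 of 8, against 49.6% of all tested genes, and its median was 0.20, against -0.0024 over all tested genes. These 8 values are not independent, since the genes varied together between mice. Leaving out KO replicate 4 gave a median of 0.33, and leaving out wild type replicate 1 gave 0.04; these are the 2 libraries in which the set was lowest.

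**Figure D2:**
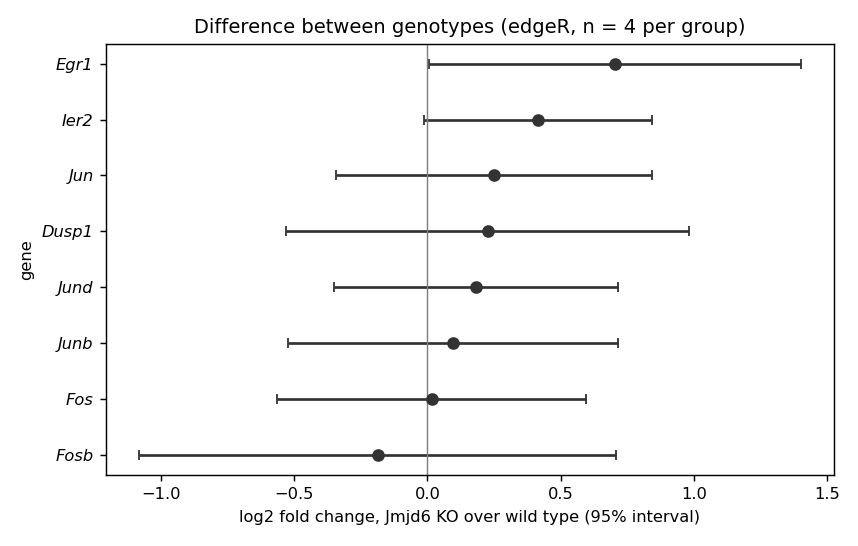
Log2 fold change of Jmjd6 KO over wild type (horizontal axis) for the 8 tested genes, with 95% intervals from the edgeR fit (n = 4 per group). The interval spans 0 in 7 genes and lies just above it for Egr1, from 0.01 to 1.40.

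The second question was how the genes varied among themselves over the 8 mice. The genes varied largely together over all 8 libraries, though some pairs, given below, rested on the low libraries. Each genotype held high and low libraries. KO replicates 1 and 2 and wild type replicate 2 were high, and wild type replicate 1 and KO replicate 4 were low. KO replicates 1 and 2 were also the most alike in their counts of all pairs within a genotype. Expressed as log2 CPM relative to each gene's mean and averaged over the 8 genes, the libraries stood at 0.45, 0.34, 0.11 and -0.55 in KO replicates 1 to 4, and at -0.68, 0.34, -0.03 and 0.02 in wild type replicates 1 to 4. In wild type replicate 1 and in KO replicate 4 all 8 genes were below their own median over the libraries. The low libraries came from different genotypes and differed in other transcripts: the granulocyte markers Mpo and Elane stood at 1166 and 56.5 CPM in KO replicate 4 and at 3293 and 785 CPM in wild type replicate 1. Mpo made up most of the granulocyte sum of 5229 CPM in wild type replicate 1. Camp and Ngp, of the same list, went the other way, at 1.70 and 2.79 CPM in KO replicate 4 and 0.99 and 2.43 CPM in wild type replicate 1.

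Of the markers of other cells, 10 of 10 granulocyte genes and 11 of 12 erythroid genes were matched in the table. The erythroid markers summed to 889 to 997 CPM in KO libraries and 879 to 1422 CPM in wild type libraries, the highest being wild type replicate 1, with Car1 at 339 CPM. Slc4a1, which encodes the erythrocyte anion exchanger, had 0 counts in that library, and the T cell gene Cd3e had 0 counts in 7 of the 8. In bulk RNA fewer cells of a type and less RNA per cell cannot be told apart, and the part of other cells in the low levels of wild type replicate 1 was not tested. KO replicate 4 had the set nearly as low. Its granulocyte and erythroid sums, 1815 and 976 CPM, were inside the range of the other KO libraries. The B cell markers of that library summed to 152 CPM, the highest of the 8, and its LSK markers to 2970 CPM, the lowest. The part of other cells in the low levels of KO replicate 4 was not tested either.

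**Figure D3:**
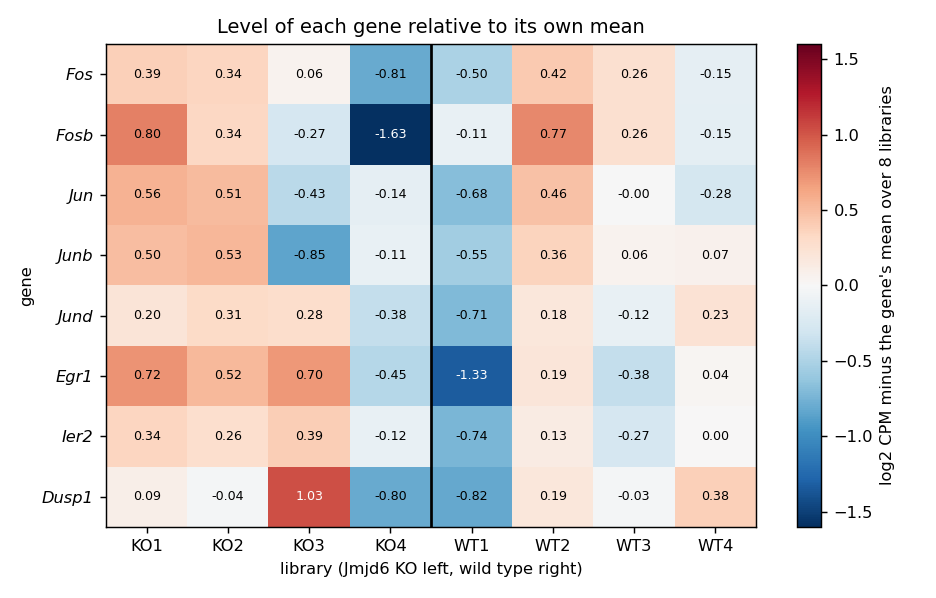
Level of each tested gene in each library as log2 CPM minus the gene's mean over the 8 libraries (colour, red above and blue below); Jmjd6 KO libraries are left of the line and wild type libraries right. KO replicate 4 and wild type replicate 1 are below 0 in all 8 rows, and in KO replicate 3 Dusp1 is high while Jun and Junb are low.

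Pairwise correlations of log2 CPM over the 8 libraries were computed for the 28 pairs of tested genes, with two-sided exact permutation p-values over all 40320 orders of the libraries, adjusted over the 28 pairs. Pearson's r was above 0 in all pairs except Junb with Dusp1, its median was 0.592, and it exceeded 0.7 in 10 of 28 pairs, 35.7%, against 7.02% of all pairs of tested genes. The median of Spearman's rho was 0.548. With the mean of each genotype removed, 12 of 28 pairs, 42.9%, exceeded 0.7, against 8.74% of all pairs, and the median r was 0.648. By the adjusted exact p, 4 pairs passed with genotype means removed, against 6 over both genotypes. These 4 were Egr1 with Ier2, Jun with Junb, Fos with Fosb and Ier2 with Dusp1, each at an adjusted p of 0.0486, the exact permutations being within genotypes. The pairs of Jund with Egr1, Ier2 and Dusp1, which passed over both genotypes, had adjusted p of 0.0729, 0.0694 and 0.0567 by the same exact test.

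After adjustment 6 of 28 pairs passed by Pearson's r and 1 by Spearman's rho. The closest pair was Egr1 with Ier2, with an r of 0.988 (exact p = 9.92e-05, adjusted p = 0.00278) and a rho of 0.952 (exact p = 0.00114, adjusted p = 0.0319). Without the 2 libraries farthest from the median of Egr1, KO replicate 1 and wild type replicate 1, the r was 0.966. Jund followed Egr1 with an r of 0.938 (exact p = 0.00117, adjusted p = 0.0139) and a rho of 0.786 (exact p = 0.0279, adjusted p = 0.129), and Ier2 with an r of 0.907 (exact p = 0.00437, adjusted p = 0.0244) and a rho of 0.81 (exact p = 0.0218, adjusted p = 0.129). Without KO replicate 4 and wild type replicate 1, the farthest from the median of Jund, these were 0.807 and 0.847.

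Of the paralogues, Jun with Junb and Fos with Fosb passed, and Jund with the other Jun genes did not. Jun with Junb had an r of 0.898 (exact p = 0.00206, adjusted p = 0.0144) and a rho of 0.881 (exact p = 0.00724, adjusted p = 0.0676), and 0.854 without KO replicate 1 and wild type replicate 1. Fos with Fosb had an r of 0.896 (exact p = 0.00149, adjusted p = 0.0139) and a rho of 0.881 (exact p = 0.00724, adjusted p = 0.0676), and 0.885 without KO replicate 4 and wild type replicate 1. Jund had an r of 0.581 with Jun (exact p = 0.132, adjusted p = 0.218) and 0.416 with Junb (exact p = 0.303, adjusted p = 0.404), both below the median of the 28 pairs, with rho of 0.333 (exact p = 0.428, adjusted p = 0.545) and 0.429 (exact p = 0.299, adjusted p = 0.441). Without the 2 libraries farthest from the median of the first gene, wild type replicate 1 and either KO replicate 1 for Jun or KO replicate 3 for Junb, these r were 0.185 and 0.805. Jund with Dusp1 had an r of 0.832 (exact p = 0.00623, adjusted p = 0.0291) and a rho of 0.619 (exact p = 0.115, adjusted p = 0.248). Without KO replicate 4 and wild type replicate 1 the r of Jund with Dusp1 was 0.417, so that relation rested on those libraries.

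**Figure D4:**
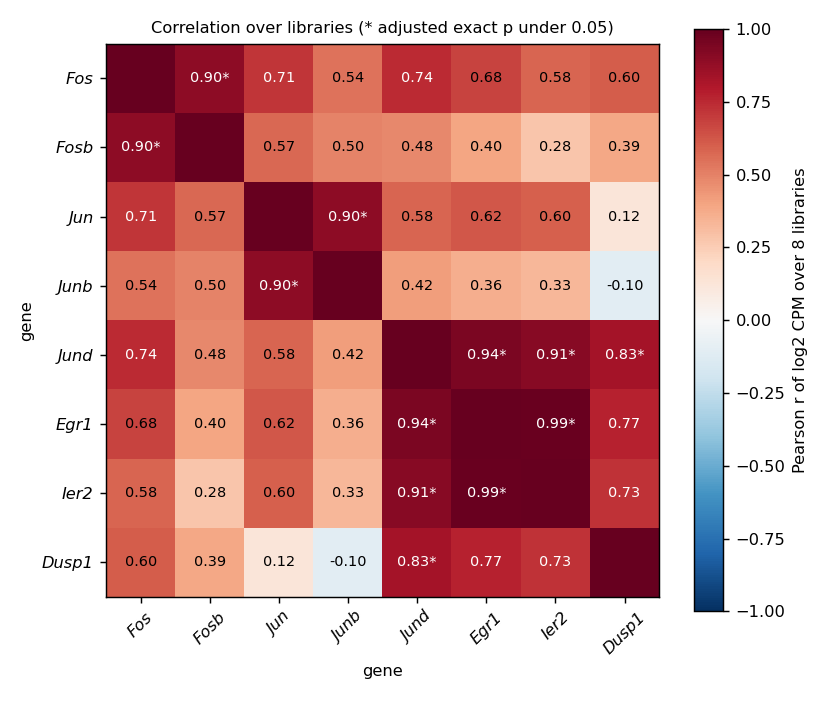
Pearson's r of log2 CPM over the 8 libraries for each pair of the 8 tested genes (colour and printed value); an asterisk marks an adjusted exact permutation p under 0.05. The 6 marked pairs are Egr1 with Ier2, Jund with Egr1, Ier2 and Dusp1, Jun with Junb, and Fos with Fosb.

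The remaining 22 pairs did not pass. Fos with Jun, the classical AP-1 pair, had an r of 0.711 (exact p = 0.0507, adjusted p = 0.142) and a rho of 0.762 (exact p = 0.0368, adjusted p = 0.129), and 0.876 without KO replicate 4 and wild type replicate 1. Fos with Egr1 had an r of 0.679 (exact p = 0.0624, adjusted p = 0.159) and a rho of 0.69 (exact p = 0.0694, adjusted p = 0.194), but 0.174 without those libraries, on which it rested. Without KO replicate 4 and wild type replicate 1 the r of Fos also fell with Jund, from 0.743 to -0.161. It fell with Dusp1 from 0.604 to -0.574 and with Ier2 from 0.584 to 0.153, whereas with Junb it went from 0.54 to 0.585. Dusp1 had an r of 0.123 with Jun (exact p = 0.756, adjusted p = 0.784) and a rho of 0.0238 (exact p = 0.977, adjusted p = 1), and an r of -0.103 with Junb (exact p = 0.81, adjusted p = 0.81) and a rho of 0 (exact p = 1, adjusted p = 1). In KO replicate 3 Dusp1 was at its highest of the 8 libraries and Junb at its lowest.

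Single libraries moved these counts. Without KO replicate 3, 19 of 28 pairs exceeded an r of 0.7 and 11 passed after adjustment. Without wild type replicate 1 the counts were 6 and 3, and without wild type replicate 2 they were 9 and 3. The median r stayed between 0.522 and 0.786 with each library left out in turn. Without wild type replicate 1 and KO replicate 3 together, 20 of 28 pairs exceeded 0.7, the median r was 0.761, and 0 pairs passed after adjustment with 6 libraries left.

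The genes also spread more between mice than most. The SD of log2 CPM within genotypes had a median of 0.51 over the 8 genes, against 0.325 over all tested genes. It was largest for Fosb, at 0.798, the 92.2nd percentile of tested genes, for Dusp1, at 0.649, and for Egr1, at 0.621. It was smallest for Ier2, at 0.317, the 48.1st percentile, and for Jund, at 0.377, the 60.2nd percentile. The biological coefficient of variation from edgeR ran from 21.2% for Ier2 to 40.8% for Fosb, with a median of 28.5% against 24.2% over all tested genes.

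Other genes of the response were taken from 5 lists. Of 37 other immediate early genes 32 were tested, with fitted log2 fold changes above 0 in 20, below 0 in 12, and 0.10 at the median. Over all tested genes 49.6% were above 0. Of the 32 genes 0 passed by edgeR after adjustment, where 0.0595% of all tested genes did. An unadjusted p under 0.05 by edgeR was found in 3 of 32, against 6.06% of all tested genes. These were Btg2, an antiproliferative gene, at a log2 fold change of 0.46, and Id1, an inhibitor of helix-loop-helix factors, at 0.96. The third, Klf6, a zinc finger factor gene, gave -0.43. Btg2 stood at 155, 149, 116 and 140 CPM in KO replicates 1 to 4, against 91.2, 133, 107 and 75.2 CPM in wild type replicates 1 to 4. Nr4a1, an orphan nuclear receptor gene induced with Egr1, stood at 108, 82.7, 115 and 34.7 CPM in KO replicates 1 to 4, against 31.8, 44.0, 43.8 and 80.5 CPM in wild type replicates 1 to 4. Like Egr1, Nr4a1 was above every wild type library in KO replicates 1, 2 and 3 and low in KO replicate 4, and edgeR gave 0.77 for its log2 fold change (SE 0.36, adjusted p = 0.812).

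Of 17 feedback inhibitors of the pathway 16 were tested, 7 above 0 and 9 below, with a median of -0.01; Spry1, an inhibitor of receptor tyrosine kinase signalling, gave 0.58 and Dusp10, a phosphatase gene, 0.32, with adjusted p of 0.832 and 0.845 by edgeR. Spred1 gave 0.38 and Tob1 -0.20. Of 26 upstream kinases and transcription factors all were tested, 5 above 0 and 21 below, with a median of -0.09. The members with the smallest p were Map2k4, a JNK pathway kinase gene, at -0.25, Mrtfa, a coactivator of SRF, at -0.31, Mapk3, which encodes ERK1, at -0.24, and Crem at -0.35. Of 11 further dimer partners of AP-1 9 were tested, 2 above 0 and 7 below, with a median of -0.16, among them Mafg at -0.44, Batf2 at 0.44 and Batf at 0.23. By edgeR 0 genes of these 3 lists passed, where 0.0595% of all tested genes did, and 0 had an unadjusted p under 0.05, where 6.06% did. Over all 5 lists DESeq2 and limma voom each called 0 of 95 genes, where 0.492% and 0.231% of all tested genes passed.

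Of 14 heat shock chaperone genes 12 were tested, 7 above 0 and 5 below, with a median of 0.06. By edgeR 0 of these 12 passed after adjustment, where 0.0595% of all tested genes did. An unadjusted p under 0.05 by edgeR was found in 0 of 12, against 6.06% of all tested genes. Hspa8, the constitutive HSP70 gene, stood at 2069, 2492, 2457 and 2412 CPM in KO replicates 1 to 4, against 1710, 2056, 2059 and 2029 CPM in wild type replicates 1 to 4. Its groups did not overlap, and the log2 fold change from edgeR was 0.26 (SE 0.14, adjusted p = 0.832, exact permutation p = 0.0286), as was also so for Bag3, at -0.27. Groups were free of overlap in these 2 of 12 chaperone genes, against 4.19% of all tested genes. Dnajb1 and Dnajb4 gave 0.18 and -0.21. The stress-inducible Hspa1a was low, at 2.29, 1.03, 0 and 5.81 CPM in KO replicates 1 to 4, against 1.88, 5.79, 4.62 and 1.01 CPM in wild type replicates 1 to 4. In the libraries lowest in the immediate early genes the chaperones together summed to 8744 CPM in KO replicate 4 and 7782 CPM in wild type replicate 1, against 7367 to 8594 CPM in the other 6 libraries. Single chaperones went either way in wild type replicate 1, which had the lowest Hspa8, Dnajb1 and Hsph1 of all 8 libraries, at 1710, 161 and 91.1 CPM, and the highest Hsp90aa1, at 1536 CPM.

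Over the 8 libraries the other immediate early genes varied with the set more often than genes in general. Of their 256 pairs with the 8 genes 19.1% had an r above 0.7, against 3.94% of pairs with all other tested genes. The share was 17.2% for feedback inhibitors, 9.72% for AP-1 dimer partners, 5.29% for upstream kinases and factors and 3.12% for heat shock chaperones. The median r with the set was 0.335 for the other immediate early genes and -0.195 for the chaperones, and -0.41 and -0.473 for the granulocyte and erythroid markers. These are descriptions over 8 libraries that share the low levels of KO replicate 4 and wild type replicate 1. The labels used here give no times of cell preparation or sorting, and the part of handling in the levels was not tested.

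**Figure D5:**
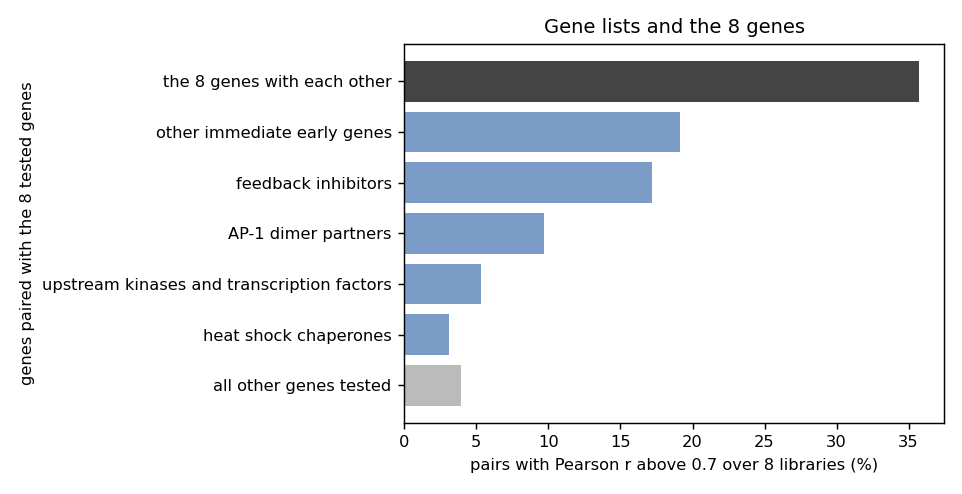
Share of gene pairs with a Pearson r above 0.7 over the 8 libraries (horizontal axis, %, from 0), for the 8 tested genes among themselves (dark bar) and with each gene list or all other tested genes (blue and grey bars). The set reaches 35.7% among itself, the other immediate early genes 19.1% and all other genes 3.94%.

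Genes whose log2 CPM closely followed the mean of the set over the 8 libraries, among genes outside it with a mean log2 CPM above 3 and no predicted name, included Fig4 (r = 0.943), Ddx51 (0.934), Zfp36 (0.927), Usp10 (0.925), Atp6v0a2 (0.925), Donson (0.919) and the small nucleolar RNA Snora68 (0.916). Of these Zfp36, which encodes a protein that destabilises AU-rich messenger RNAs, is itself an immediate early gene. Zfp36 stood at 455, 430, 270 and 203 CPM in KO replicates 1 to 4, against 195, 358, 307 and 250.2 CPM in wild type replicates 1 to 4. It was lowest in wild type replicate 1 and KO replicate 4, as the set was. These were among the highest of 9817 values, and the r values are given as a description with no test.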

How the data were processed

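Per the labels, polyA RNA of sorted LSK cells was sequenced with 1 library per mouse. The authors deposited whole-number counts per gene symbol; per the submitters' processing notes, reads were aligned with HISAT2 to mm10. Not given in the sources used here are the version of HISAT2, how reads were counted, on which annotation, and whether by strand. Columns were matched to samples by genotype and replicate number. Each library counts as 1 sample, following the labels. All pairs within a genotype differed more than random sampling of reads would give, but this does not show that the mice were independent. KO replicates 1 and 2 were the closest pair, at a chi-square of 6.89 per degree of freedom. Wild type replicates 1 and 3 came next at 16.4, and the other KO pairs gave 34.7 to 93.5. KO replicates 1 and 2 also lay close in the principal component analysis, at -15.8 and -11.3 on component 1.

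Jmjd6 KO was compared with wild type over all 8 libraries with edgeR 4.0.16 (quasi-likelihood test, R 4.3.3), with TMM scaling, filterByExpr (min.count 10, min.total.count 15) and Benjamini-Hochberg adjustment over 13439 genes, called under 0.05. Log2 CPM used a prior count of 2. Intervals of fold changes come from the fit and include the spread between mice. Levels per kilobase used exon lengths of GENCODE M21 (GRCm38); positions of promoters and their sequences came from RefSeq GRCm38.p6. Alternatives were DESeq2 1.42.0, limma 3.58.1 voom with sample weights, other scalings, filters, a replicate block and libraries left out.

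The genes, the lists and the libraries left out together were chosen with earlier results of these data known. The named genes were all 10 of the set, Jmjd6, up to 4 per list with the smallest p, and the 8 most similar in pattern, of which some are not reported here; Nr4a1, Klf6, Id1 and Btg2 fall under the third of these, while Hspa1a, Zfp36 in its levels, Hsph1, Hsp90aa1, Car1, Mpo, Elane, Slc4a1 and Cd3e were chosen after their values were seen.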

Additional observations from a re-analysis of the deposited data

Results flagged for a closer look

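In 2 of 58 groups of 4 libraries, 29 genes in 2 genotypes, the highest or lowest library lay far from the others by Dixon's criterion; chance flags about 1 in 20 groups, so 2 is no more than chance gives. Batf2, a dimer partner of Jun proteins, stood at 7.398 CPM in KO replicate 3, against 3.87 to 3.96 CPM in the other KO libraries. Hspa8 stood at 1710 CPM in wild type replicate 1, where wild type replicates 2, 3 and 4 ranged over 2029 to 2059 CPM. No gene of the immediate early set had such a library in either genotype.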

How the results depend on the processing

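Under 17 alternative analyses 0 of the 8 tested immediate early genes and 0 genes of the other 5 lists passed after adjustment. Jun, Egr1 and Ier2 kept their direction in all 17, at log2 fold changes of 0.10 to 0.55, 0.38 to 0.91 and 0.21 to 0.54. The values near 0 changed sign. Fos gave -0.036 with library size only, -3e-04 with no filter, -0.017 with the replicate block, -0.043 without the 2 libraries with no Y-linked counts, -0.13 without wild type replicate 1 and KO replicate 3, and -0.11 to 0.22 with single libraries left out. Dusp1 gave -0.042 and -0.39 without those same pairs of libraries and -0.19 to 0.45 with single libraries left out. Jund gave -0.037 without wild type replicate 1 and KO replicate 3. Fosb gave 0.10 by limma voom and -0.54 to 0.11, and Junb -0.057 to 0.31, with single libraries left out. The cause was not tested. The count of all genes called was 8, and 3 with the replicate block, 4 without either pair of libraries, 31 by limma voom, 66 by DESeq2 and 2 to 8 with single libraries left out. The pairs with an r above 0.7, 10 of 28, were 6 to 19 with single libraries left out and 20 without wild type replicate 1 and KO replicate 3; those past adjustment, 6, were 3 to 11, 0 and, by Spearman's rho, 1. Same-numbered libraries did not deviate together (r of 0.03, -0.01, -0.18 and -0.19 over genes). With single libraries such as KO replicate 3 standing apart, these r cannot show whether the numbers pair mice. With the replicate block Egr1 gave 0.73 (adjusted p = 0.962 by edgeR), and the median r of the set was 0.66 with replicate means removed. With 4 mice a group, the interval of Fos still ran over -0.57 to 0.60 on the log2 scale.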

Other observations

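The ratio of Egr1 to Fos counts within a library, which needs no scaling, was 0.201, 0.181, 0.248 and 0.204 in KO replicates 1 to 4, against 0.0900, 0.136, 0.102 and 0.181 in wild type replicates 1 to 4. KO replicate 2 and wild type replicate 4 had nearly the same ratio, and the other 3 KO libraries lay above all wild type libraries. KO replicate 4, low in both genes, was within the range of the other KO libraries for this ratio. The ratio of Dusp1 to Fos counts was 0.302, 0.286, 0.729 and 0.372 in KO replicates 1 to 4, against 0.298, 0.316, 0.305 and 0.533 in wild type replicates 1 to 4, and was highest in KO replicate 3 and wild type replicate 4, the libraries with no Y-linked counts. Both ratios were chosen after their values were seen and were not tested.

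Myc, another immediate early gene, stood at 427, 502, 667 and 396 CPM in KO replicates 1 to 4, against 260.2, 375, 358 and 575 CPM in wild type replicates 1 to 4. It was likewise highest in KO replicate 3 in KO and in wild type replicate 4 in wild type. Ppp1r15a, a stress-induced phosphatase subunit gene, stood at 101, 107, 209 and 72.2 CPM in KO replicates 1 to 4, against 56.8, 114, 88.7 and 181 CPM in wild type replicates 1 to 4, with the same 2 libraries highest. Dusp2, a nuclear MAP kinase phosphatase gene, had its lowest levels in those libraries, at 120.2 CPM in KO replicate 3 and 229 CPM in wild type replicate 4, against 388 to 464 CPM in the other KO libraries and 240 to 490 CPM in wild type replicates 1, 2 and 3. These genes were chosen after their values were seen.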
